A study of Mus musculus with 6 samples.

Results

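Of the 47062 genes in the deposited table, 9 were followed in newborn mouse striatum: Gsx2, Hes1, Hes5, Nes, Vax1, Egfr, Notch1, Dll1 and Dll3. They are regulators of neural progenitors of the lateral ganglionic eminence, the embryonic zone that gives rise to striatal projection neurons. They were listed by symbol, with earlier results of these data known. RNA from striatum dissected with its subventricular zone was sequenced at postnatal day 0 in 6 libraries. The 3 control libraries came from Sp9Flox/Flox mice without Cre and the 3 mutant libraries from Drd2-Cre;Sp9Flox/Flox littermates, all on a mixed C57BL/6J, 129S6 and CD1 strain background. Both groups therefore carried floxed alleles of Sp9, a zinc finger transcription factor gene. The groups differed in Drd2-Cre, in which control elements of Drd2, the D2 dopamine receptor gene of striatopallidal neurons, direct Cre expression. No group with Drd2-Cre and no floxed allele was analysed here, so the Cre transgene and the Sp9 deletion cannot be told apart. Whether a library is 1 animal is not stated in the labels, so the p-values speak of variation among libraries only.

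In the germinal zone, neighbouring cells signal to one another through Notch. A ligand such as Dll1 on one cell activates the Notch1 receptor on the next, the cleaved receptor joins the DNA-binding protein Rbpj in the nucleus, and HES repressors are made that hold the cell in a progenitor state. Cells that begin to differentiate express Dll1 and Dll3, while Gsx2 and Vax1 are homeobox factors that pattern the ventral forebrain. Nes encodes the intermediate filament nestin of neural stem cells, and Egfr encodes the epidermal growth factor receptor, abundant on dividing cells of the subventricular zone.

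Hes5 is a direct target of Notch in textbook accounts, and its promoter is shown for its matches to the Rbpj motif. The sequence is the RefSeq window of 250 bases before the start site of Hes5 (GRCm38.p6, chr4:154960673-154960922, plus strand), with matches to the extended Rbpj motif GTGGGAA on either strand in capitals.

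Hes5: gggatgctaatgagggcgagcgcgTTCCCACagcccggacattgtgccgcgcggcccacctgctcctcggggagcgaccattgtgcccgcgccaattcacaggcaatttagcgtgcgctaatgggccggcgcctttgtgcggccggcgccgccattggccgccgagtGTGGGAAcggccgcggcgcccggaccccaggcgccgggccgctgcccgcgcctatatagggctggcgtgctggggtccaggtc

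The window held 2 matches in opposite orientation, one beginning 226 and the other 83 bases before the start. Of 32851 RefSeq windows of the same length, 5.42% held the motif and 0.161% held it at least 2 times. A shorter core, TGGGAA, which lies inside the longer motif, occurred in 21.6% of windows and among the 9 genes in Hes5 alone. RefSeq windows were matched for 8 of the 9 genes, all but Hes1. The E-box CAGCTG, a motif of basic helix-loop-helix activators, was present in 13.0% of windows and among these genes in Dll1 and Dll3. These are 30-base stretches on the minus strand of chr17:15377047-15377076 for Dll1 and chr7:28301786-28301815 for Dll3, with the E-box in capitals.

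Dll1: tgcattaccataCAGCTGagcgcacaaaga

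Dll3: aaatataagactccggcatccagCAGCTGc

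The E-box began 132 bases before the RefSeq start of Dll1 that lies farther upstream and 7 bases before that of Dll3. The window of the other RefSeq start of Dll1 (chr17:15375824-15376073) held no E-box. These RefSeq starts do not coincide with the gene ends in GENCODE M21, which are given with the values of each gene. The N-box CACNAG, a HES target motif searched on both strands, was found for Egfr and Notch1 and in 36.7% of all windows. These matches are descriptions of the letters and not of factor binding.

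The libraries held 16237138 to 19457583 fragments in genes, estimated from the step of the scaled counts. All 9 genes passed the filter of a mean of at least 0.5 FPKM (fragments mapped per kilobase of transcript, corrected for library size), in a fit of 16666 genes. The targeted gene Sp9 had 20.1, 19.0 and 17.3 FPKM in control replicates 1 to 3 and 8.37, 7.93 and 9.67 in mutant replicates 1 to 3 (limma adjusted p = 0.0567). The 13 striatal neuron markers were all present, with a summed FPKM of 1814 to 1921 in the controls and 1754 to 1875 in the mutants. Single markers differed more than the sum, with log2 fold changes from -0.36 to 0.73. Of the 13, 5 had groups that did not overlap, beside 11.4% of all genes. At a limma unadjusted p under 0.05, 2 were higher and 3 lower, and 0 passed after adjustment.

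None of the 9 genes passed an adjusted p of 0.05 with limma, on FPKM or on scaled counts, and 0 had an unadjusted p under 0.05 in either fit. Over all genes tested, 0.0600% were called at the adjusted threshold and 5.65% at the unadjusted one on FPKM. On scaled counts the shares were 0.143% and 6.42%. The control and mutant libraries overlapped in FPKM for every one of the 9 genes, against 11.4% of all genes with groups that did not overlap. The estimate was below 0 for 6 genes and above 0 for 3, with a median log2 fold change of -0.08 beside 0.00 over all genes tested. On log2(FPKM + 0.5) the 95% interval lay within a 2-fold change in both directions for 8 genes, all but Dll3. It lay within 1.5-fold for 5, namely Notch1, Dll1, Hes1, Hes5 and Nes. On scaled counts the log2 intervals of Gsx2 (-0.83 to 1.23) and Vax1 (-1.16 to 0.58) reached beyond 2-fold, while that of Dll3 (-0.85 to 0.78) did not.

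**Figure D1:**
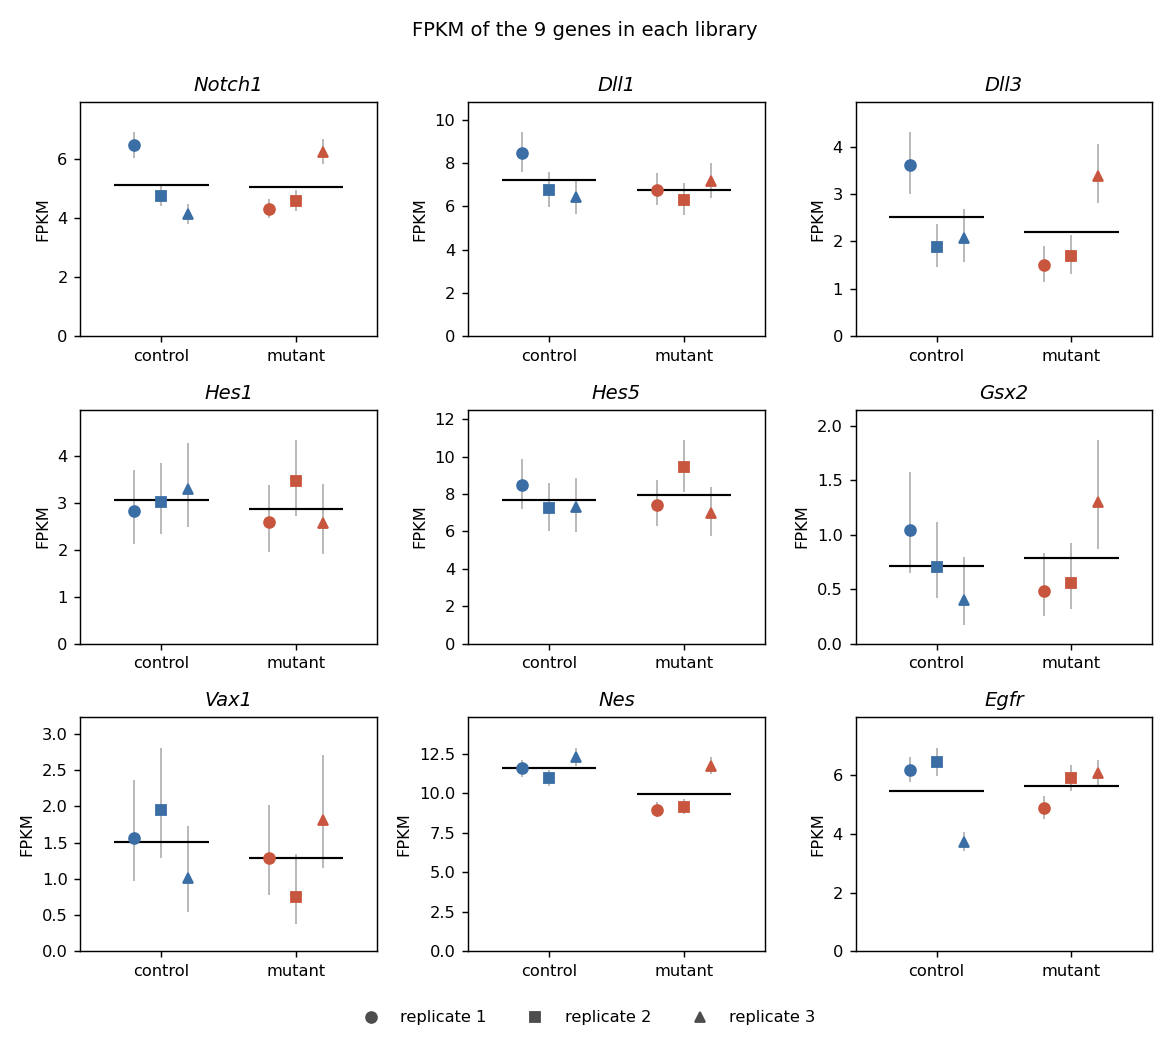
FPKM (vertical axes, starting at 0) of the 9 genes in 3 control and 3 mutant libraries; symbols mark the replicate, black lines the group means and grey bars the 95% Poisson interval of the fragments behind each value, which covers counting error only. Every gene has overlapping groups, and Notch1, Dll3 and Gsx2 are highest in control replicate 1 and mutant replicate 3.

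The receptor gene Notch1 (ENSMUSG00000026923; GRCm38 chromosome 2, 26457903 to 26516663, minus strand) had 6.47, 4.75 and 4.13 FPKM in control replicates 1 to 3. It had 4.31, 4.59 and 6.25 FPKM in mutant replicates 1 to 3. The highest control and the highest mutant stood above the other 4 libraries, and the group means were nearly equal, at 5.11 ± 1.21 and 5.05 ± 1.05 (SD, n = 3 each). The log2 fold change was -0.01 ± 0.20 (SE), with a 95% interval of -0.52 to 0.49 (limma unadjusted p = 0.958). Between 557 and 889 fragments lay behind each value. Among the receptors, Notch3, which is strong in mural cells of vessels, had a control mean of 5.01 FPKM, close to Notch1. Notch2 and the endothelial receptor gene Notch4 had 2.69 and 2.74. Notch1 exceeded Notch2 in all 6 libraries, by 1.56 to 2.54 times, while its ratio to Notch3 ran from 0.85 to 1.34, so the order of that pair depended on the library.

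Dll1 (ENSMUSG00000014773; chromosome 17, 15367354 to 15376872, minus strand), the ligand that activates Notch on the neighbouring cell, had 8.49, 6.76 and 6.45 FPKM in the controls. The mutants had 6.78, 6.31 and 7.16. Control replicate 1 was the highest library and the mutants lay inside the range of the controls except for mutant replicate 2, just under it. The means were 7.23 ± 1.10 and 6.75 ± 0.427 (SD, n = 3 each), with a log2 fold change of -0.09 (95% interval -0.38 to 0.21). Dll1 overlaps A930024N18Rik, a noncoding gene on the opposite strand with a mean of 2.75 FPKM, and the use of strand in counting is not given in the sources used here.

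Dll3 (ENSMUSG00000003436; chromosome 7, 28293553 to 28302238, minus strand) encodes a divergent Delta protein that acts within the cell that makes it and does not activate Notch on its neighbours. It had 3.61, 1.88 and 2.07 FPKM in the controls and 1.49, 1.69 and 3.39 in the mutants. Control replicate 1 and mutant replicate 3 thus had well over the level of the other libraries. The means were 2.52 ± 0.953 and 2.19 ± 1.05 (SD, n = 3 each). The 95% interval of the fold change, -1.03 to 0.65 around -0.19 in log2, was the widest of the 9 on FPKM. Without mutant replicate 3 the estimate was -0.49, and without control replicate 1 it was 0.06, neither past the threshold with limma. The libraries with the highest Dll3 held 124 and 119 fragments and the others 57 to 69. Dll1 was above Dll3 in every library, by 2.35, 3.60 and 3.12 times in the controls and by 4.54, 3.74 and 2.11 times in the mutants. The ratio was lowest in those same high libraries.

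Hes5 (ENSMUSG00000048001; chromosome 4, 154960923 to 154962371, plus strand) is the Notch target with the separate motif matches shown above. It had 8.46, 7.24 and 7.31 FPKM in the controls and 7.43, 9.42 and 6.96 in the mutants. Mutant libraries were both the highest and the lowest of the 6. Group means were 7.67 ± 0.687 and 7.94 ± 1.31 (SD, n = 3 each), which gave a log2 fold change of 0.04, with a 95% interval of -0.28 to 0.36. Each value rested on 105 to 184 fragments. An antisense noncoding gene, Gm20421, overlaps Hes5 and had a mean of 0.917 FPKM.

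Hes1 (ENSMUSG00000022528; chromosome 16, 30064384 to 30067796, plus strand), a HES repressor that answers to Notch and to other signals, had 2.83, 3.03 and 3.29 FPKM in the controls. It had 2.59, 3.46 and 2.57 FPKM in the mutants. Mutant replicate 2 was the highest library for Hes1 as it was for Hes5, and the other mutants were below all controls. The means were 3.05 ± 0.229 and 2.87 ± 0.510 (SD, n = 3 each), with -0.42 to 0.25 as the 95% interval of the log2 fold change. Hes5 was above Hes1 in each library, by 2.22 to 2.99 times. Of the 36 pairs that the 9 genes form, Hes1 and Hes5 had the smallest root mean square distance between centred log2 values, at 0.13. Each gene had a spread of 0.14 about its own mean, so the distance was nearly as large as that spread. In the controls the deviations had opposite signs, at -0.05, 0.03 and 0.14 for Hes1 and 0.12, -0.10 and -0.08 for Hes5. In the mutants the signs were the same.

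**Figure D2:**
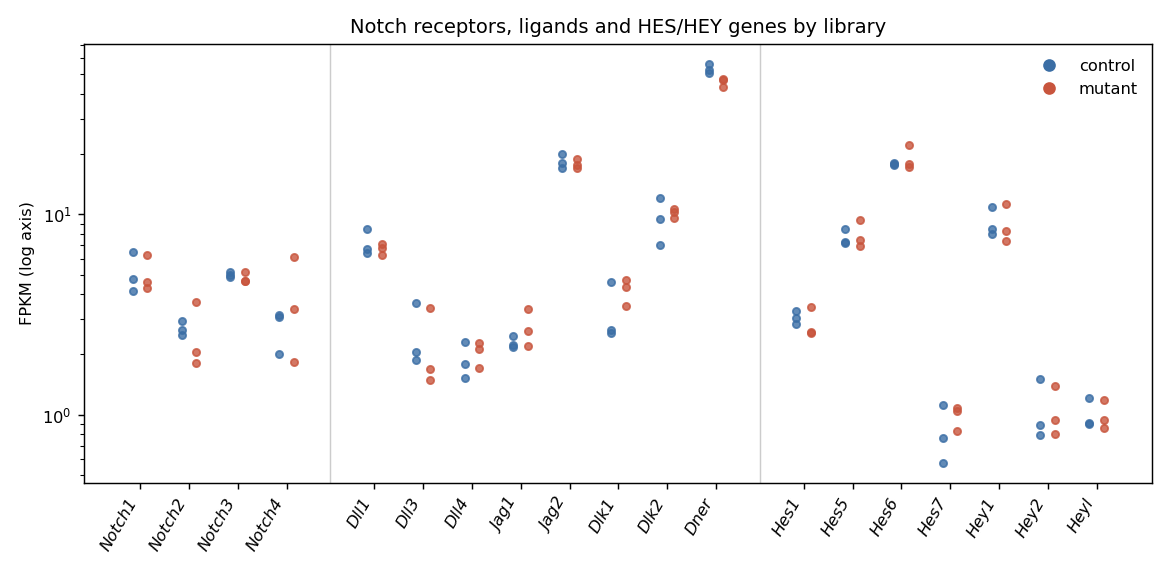
FPKM (log axis) of Notch receptors, Notch ligands and HES and HEY genes, 1 point per library, blue for control and red for mutant. Dner is the most abundant ligand and Hes6 the most abundant HES gene, while Notch1, Dll1, Dll3, Hes1 and Hes5 show groups that overlap.

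Gsx2 (ENSMUSG00000035946; chromosome 5, 75075601 to 75077893, plus strand), the homeobox gene that specifies lateral eminence progenitors, was the lowest of the 9. It had 1.04, 0.707 and 0.401 FPKM in the controls and 0.485, 0.560 and 1.30 in the mutants. Its highest libraries were mutant replicate 3 and control replicate 1, as for Dll3. Only 8 to 29 fragments lay behind each value. The 95% Poisson interval was 3.45 to 15.8 fragments in the lowest library, control replicate 3, and 19.4 to 41.7 in the highest, so those libraries differed beyond counting error. The means were 0.716 ± 0.320 and 0.781 ± 0.451 (SD, n = 3 each). The 95% interval of the log2 fold change, -0.74 to 0.85, left a 1.5-fold difference in either direction possible. Without mutant replicate 3 the estimate turned from 0.06 to -0.22, and it was 0.20 on scaled counts. Its paralog Gsx1 was under the filter, with 0.346 to 0.355 FPKM in the controls and 0.260 to 0.655 in the mutants.

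Vax1 (ENSMUSG00000006270; chromosome 19, 59166187 to 59170056, minus strand), a homeobox gene of the ventral forebrain and septal midline, had 1.56, 1.94 and 1.01 FPKM in the controls and 1.29, 0.748 and 1.80 in the mutants. Control replicate 2 was the highest and mutant replicate 2 the lowest library. The values rested on 11 to 28 fragments. The means were 1.50 ± 0.468 and 1.28 ± 0.528 (SD, n = 3 each), with a 95% interval of -0.91 to 0.54 for the log2 fold change.

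Nes (ENSMUSG00000004891; chromosome 3, 87971078 to 87980451, plus strand), the marker of neural stem cells, had the highest level and the smallest p-value of the 9. It had 11.6, 11.0 and 12.3 FPKM in the controls and 8.96, 9.15 and 11.7 in the mutants. Mutant replicates 1 and 2 were below every control, and mutant replicate 3 lay within the control range. The means were 11.6 ± 0.660 and 9.95 ± 1.56 (SD, n = 3 each), a log2 fold change of -0.22 ± 0.12 (SE; 95% interval -0.51 to 0.07; limma unadjusted p = 0.107, adjusted p = 0.885). The exact two-sided permutation test gave 0.3, in a design whose smallest possible p is 0.1. On scaled counts the estimate was again -0.22 (unadjusted p = 0.0648, limma adjusted p = 0.807). Without mutant replicate 3 it was -0.34 on FPKM, with an unadjusted p of 0.00650 and a limma adjusted p of 0.614. With any other single library left out, the limma unadjusted p was 0.126 to 0.285. At 1481 to 1808 fragments per library, counting error was small beside the spread between mutant libraries. Nes is also made by the endothelial cells of growing vessels, and the 14 vessel markers had a summed FPKM of 69.0 to 82.1 in the controls and 70.7 to 80.1 in the mutants.

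Egfr (ENSMUSG00000020122; chromosome 11, 16752203 to 16918158, plus strand), the receptor of dividing intermediate progenitors, had 6.19, 6.44 and 3.73 FPKM in the controls and 4.90, 5.91 and 6.09 in the mutants. Control replicate 3 was the lowest library, and the mutants lay between it and the other controls. The means were 5.46 ± 1.50 and 5.63 ± 0.639 (SD, n = 3 each), with -0.46 to 0.60 as the 95% interval of the log2 fold change. On FPKM control replicate 2 was the highest library for Egfr. By scaled counts mutant replicate 3 and control replicate 1 led, with 908 and 828 against 705 in control replicate 2. The 2 columns of the authors' table thus order these libraries differently.

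**Figure D3:**
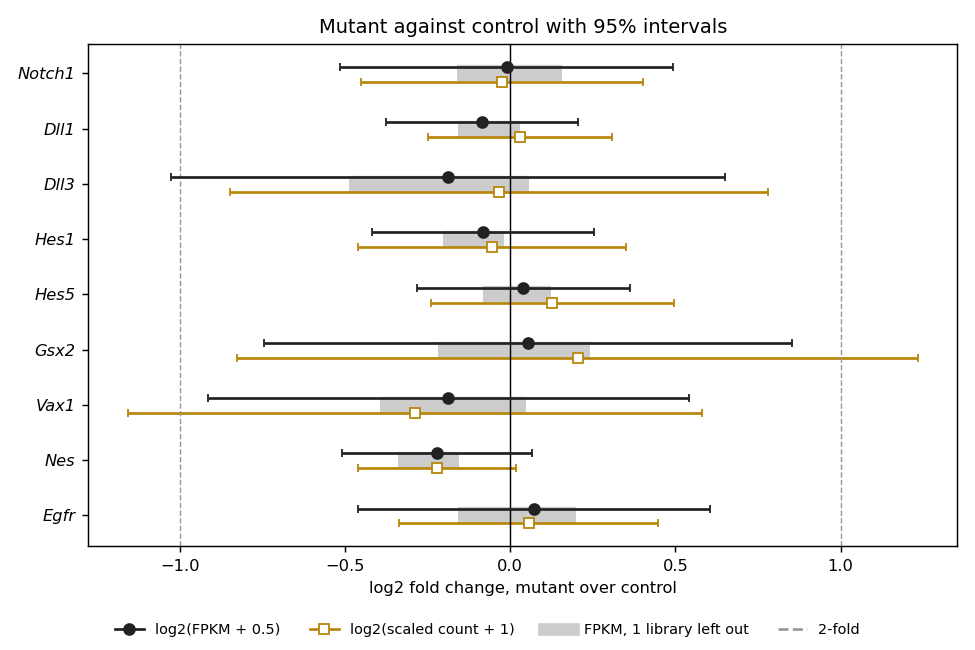
Log2 fold change of mutant over control for the 9 genes (horizontal axis) on log2(FPKM + 0.5), black, and log2(scaled count + 1), gold, with 95% intervals; grey bars span the FPKM estimates with 1 library left out, and dashed lines mark 2-fold. Every interval includes 0, and Nes, at -0.22 on both scales, lies farthest from 0 on FPKM.

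By mean FPKM in the controls the order was Nes, Hes5, Dll1, Egfr, Notch1, Hes1, Dll3, Vax1 and Gsx2. Nes lay above Hes5 without overlap of the control libraries, as did Notch1 above Hes1. Dll1 and Egfr were separated by less than 0.01 FPKM at their nearest libraries. Hes5 and Dll1, Egfr and Notch1, Hes1 and Dll3, Dll3 and Vax1, and Vax1 and Gsx2 overlapped in the controls. In the mutants Nes and Hes5 overlapped as well.

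The rest of the Notch pathway was read from 4 lists of receptors and ligands, processing enzymes and modifiers, nuclear factors, and HES, HEY and ID genes. Of 59 genes, 57 were tested. None passed an adjusted p of 0.05 with limma, beside 0.0600% of all genes. At an unadjusted p under 0.05 there was 1, beside 5.65% of all genes. It was the ligand gene Dner, lower in the mutants. The median log2 fold change of the 57 was 0.00, as over all genes tested, and no estimate reached 1.5-fold in either direction. Dner, a Notch ligand of differentiated neurons, had 50.7, 56.3 and 52.6 FPKM in the controls and 46.8, 47.3 and 43.3 in the mutants (log2 fold change -0.21, limma adjusted p = 0.763). Its groups did not overlap, as for 3 of the 57 beside 11.4% of all genes, and the difference was not past the threshold. Dlk1, which encodes a Delta-like membrane protein, had a control mean of 3.27 FPKM and a mutant mean of 4.19.

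All 21 processing genes, which include the proteases and ubiquitin ligases that act on Notch and its ligands, had estimates between -0.09 and 0.06. Rbpj, the DNA-binding partner of the cleaved receptor, had 11.4 ± 2.14 and 12.9 ± 2.62 FPKM. The corepressor gene Tle2 and the ubiquitin ligase gene Dtx4 had the smallest p-values of the nuclear list, with log2 fold changes of 0.30 and 0.21 and limma adjusted p of 0.860 and 0.858. Among HES, HEY and ID genes, Id4 and Hes6 were the most abundant, with control means of 40.7 and 17.8 FPKM. Id2, which encodes an inhibitor of basic helix-loop-helix factors, had the estimate farthest from 0 (0.51, 95% interval -0.33 to 1.35). Hes2 was listed at 0 in every library.

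Of the EGF family list, 11 of 16 genes were tested and none passed the threshold with limma. Tgfa, which encodes a ligand of the epidermal growth factor receptor, had the smallest p. It had 99.7, 109 and 106 FPKM in the controls and 87.3, 91.6 and 89.2 in the mutants, with no overlap (log2 fold change -0.23, unadjusted p = 0.00281, limma adjusted p = 0.566). Of the 11 genes, 1 had groups without overlap, beside 11.4% of all genes. The same 1 had a limma unadjusted p under 0.05, beside 5.65% of all genes. Erbb4, a neuregulin receptor gene of interneurons and neuroblasts, had 6.49 ± 1.74 and 8.96 ± 1.06 FPKM (SD, n = 3 each; limma adjusted p = 0.858). Egfr thus stood beside a ligand gene far above it in level in both groups.

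Of 28 further eminence progenitor genes, 24 were tested, and 0 passed with limma, with 1 gene higher and 1 lower at p under 0.05 before adjustment. Over all genes 2.65% were higher and 2.99% lower at that level. Dlx5, a homeobox gene downstream of Dlx1 and Dlx2, had 28.6, 20.5 and 24.3 FPKM in the controls and 37.0, 33.4 and 35.4 in the mutants (log2 fold change 0.53, limma adjusted p = 0.688). It was the higher one, with groups that did not overlap, as for 4 of the 24 beside 11.4% of all genes. The median of this list was 0.12, and 15 of its estimates were above 0.

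**Figure D4:**
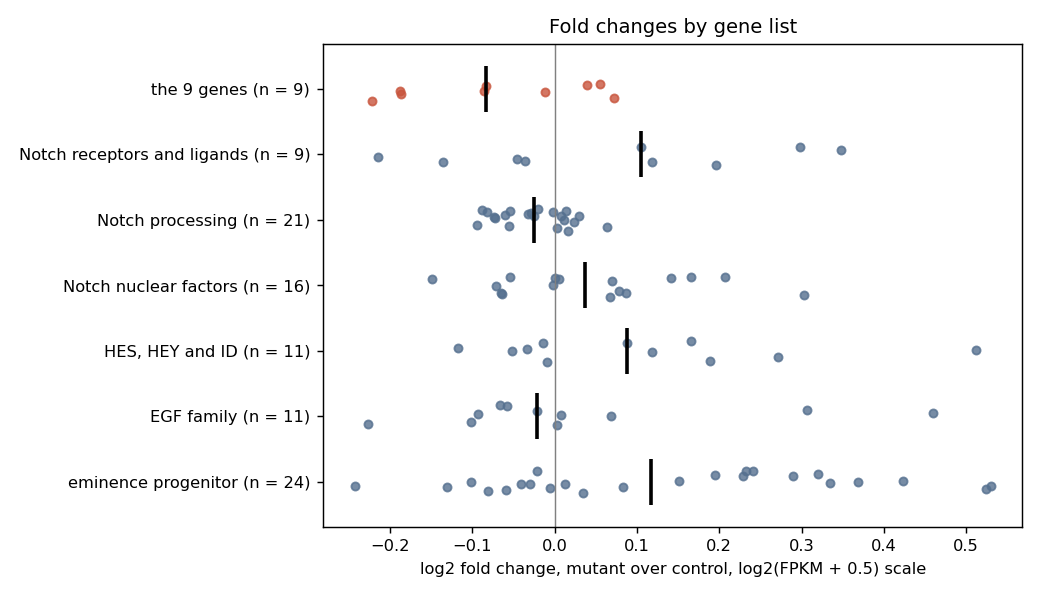
Log2 fold change of mutant over control for each tested gene (points, spread vertically for visibility) in the 9 genes and 6 pathway lists; bars mark the median of each list. No point passed the threshold; the medians run from -0.08 for the 9 genes to 0.12 for the eminence progenitor list.

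For several of the 9 genes, libraries of the same genotype differed more than the group means did. Control replicate 1 was the highest control for 5 of them and mutant replicate 3 the highest mutant for 7. Both held for Notch1, Dll1, Dll3 and Gsx2, 4 of 9. Over all genes tested, control replicate 1 led the controls in 36.9%, mutant replicate 3 led the mutants in 33.0%, and both in 14.6%. This pattern was chosen for description after the values were seen and has no test. In mutant replicate 3, Gsx2 stood 0.57, Dll3 0.50 and Notch1 0.29 above its own mean over the 6 libraries on the log2 scale. In control replicate 1 the deviations were 0.35, 0.59 and 0.34.

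Other markers moved with these libraries. All 20 cell cycle genes were highest in mutant replicate 3 among the mutants, and 12 of them in control replicate 1 among the controls. Their summed FPKM was 117, 110 and 98.9 in control replicates 1 to 3 and 93.6, 94.6 and 153 in mutant replicates 1 to 3. The 7 oligodendrocyte precursor markers summed to 96.6, 79.5 and 69.9 in the controls and 71.9, 77.8 and 96.9 in the mutants. Both libraries led their groups for 12 of the 20 cell cycle genes and 6 of these 7 markers. The same held for 16 of the 24 tested eminence progenitor genes and 9 of the 14 vessel markers. Cortical progenitor markers, 7 genes, summed to 5.56 to 8.63 in the controls, to 6.93 and 4.28 in mutant replicates 1 and 2 and to 19.9 in mutant replicate 3. In that library the defining cortical genes Emx1 and Eomes had 0.937 and 1.99 FPKM, against at most 0.404 and 0.577 elsewhere, and Neurog1 was listed at 0 in all 6 libraries. The part of dissection, cortical tissue or dividing cells in the values of the 9 genes was not tested. In bulk tissue, fewer cells of a type and less RNA per cell cannot be told apart.

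Among the genes of the lists, those closest in profile over the 6 libraries were mitotic or replication genes for some of the 9 and genes of other kinds for the rest. Each is the smallest of many distances, to lists that hold 20 cell cycle genes, and was not tested. Counting error enters the profiles of Gsx2 and Vax1, which rested on 8 to 29 and 11 to 28 fragments per library. By root mean square distance of centred log2 values, the nearest to Gsx2 were the mitotic genes Ube2c (0.09) and Mki67 (0.12), against a spread of Gsx2 about its own mean of 0.35. Dll3 lay nearest to the mitotic kinase gene Cdk1 and to Btg2, a gene of neurogenic divisions (0.15 each, own spread 0.40), and Vax1 to the replication gene Mcm2 (0.13, own spread 0.34). Notch1 lay nearest to Gpr17 and Olig1 of the oligodendrocyte lineage (0.05 and 0.07, own spread 0.23). Dll1 lay nearest to Nrg1 and the endothelial gene Kdr, and Egfr to Ptprz1, a phosphatase gene of radial glia and oligodendrocyte precursors. Nes lay nearest to the replication gene Mcm5 and the corepressor gene Tle1 (0.10 each, own spread 0.17). Hes1 lay nearest to Ppp1r1b, a gene of striatal projection neurons (0.08), and Hes5 to the endothelial receptor gene Tek (0.06), each with an own spread of 0.14.

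The HES genes differed among themselves in their high libraries. Hes1 was highest in control replicate 3 and mutant replicate 2 within its groups. Hes5 was highest in control replicate 1 among the controls, at 0.12 above its mean, and lowest in mutant replicate 3 among the mutants, at -0.15. Hes6 had 22.2 FPKM in mutant replicate 3, its highest library, beside a control mean of 17.8. The list of 11 tested HES, HEY and ID genes had its median deviation highest in replicate 2 of each group, at 0.19 in the controls and 0.17 in the mutants. Id4, for example, had 35.7, 49.3 and 37.0 FPKM in the controls and 41.1, 53.8 and 37.8 in the mutants. The 14 radial glia and astrocyte markers had a median deviation of 0.13 in replicate 2 of both groups, and of 0.11 in mutant replicate 3, where 9 of them were highest among the mutants. Hes5 and Hes1 were high in mutant replicate 2, at 0.26 and 0.20, but not in control replicate 2, at -0.10 and 0.03. The indirect pathway list, which holds Sp9 itself, instead followed the genotype, with medians of 0.52 to 0.66 in the controls and -0.69 to -0.47 in the mutants. Of its 9 genes, 8 had estimates below 0 and 1 above. The list was chosen with earlier results of these data known, so its separation is a description and not a test. The medians of the 6 microglia markers also did not overlap between the groups, at -0.07 to -0.02 in the controls and 0.01 to 0.09 in the mutants. Of the 6 genes, 1 had groups that did not overlap, beside 11.4% of all genes, and 0 had a limma unadjusted p under 0.05. Their summed FPKM overlapped, at 17.6 to 24.4 in the controls and 18.8 to 21.0 in the mutants.

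**Figure D5:**
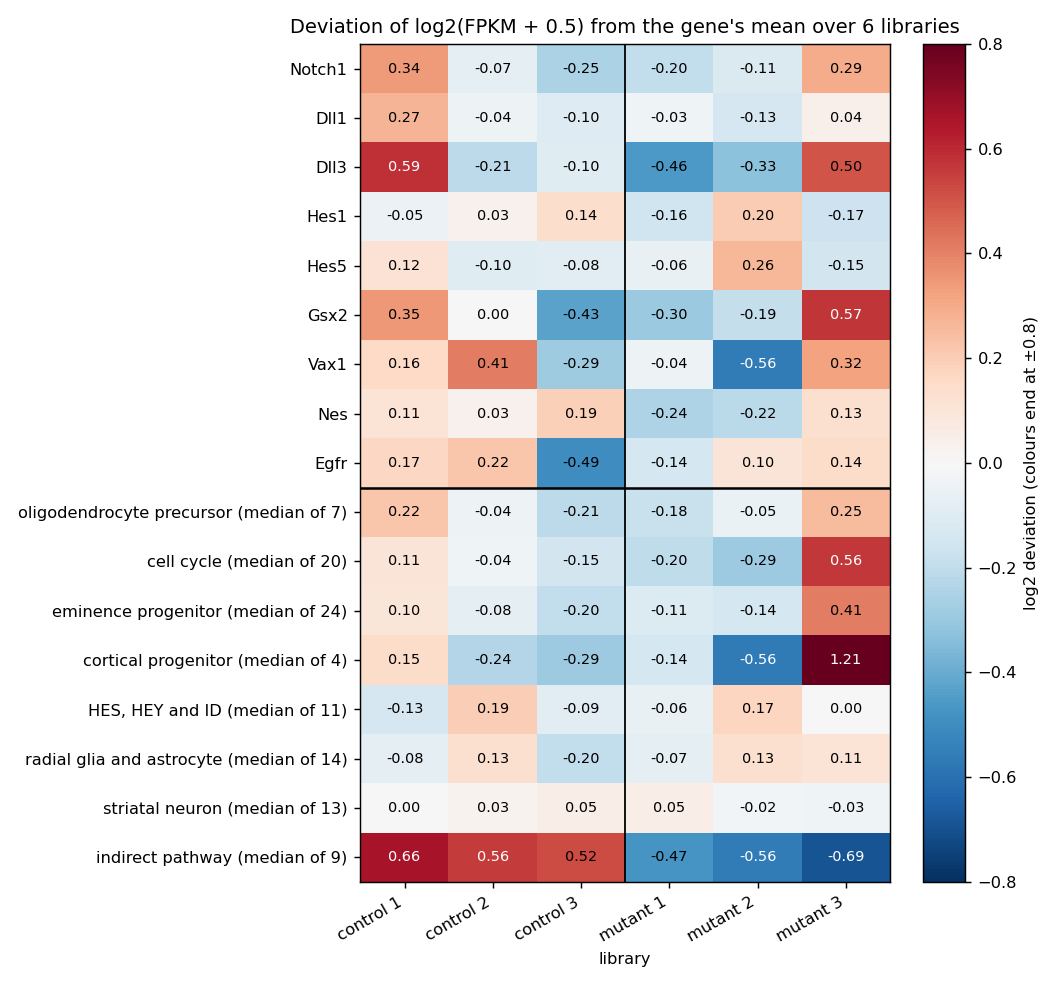
Deviation of log2(FPKM + 0.5) in each library (columns) from the mean of the 6 libraries, for the 9 genes (above the black line) and as the median of 8 marker lists (below it); red is above and blue below the mean. Dll3, Gsx2 and Notch1 share their high libraries with the cell cycle, oligodendrocyte precursor, eminence progenitor and cortical progenitor lists. The indirect pathway list, which holds Sp9 and was chosen with earlier results known, is above the mean in all 3 controls and below it in all 3 mutants.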

How the data were processed

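For each of 6 libraries, 3 per group, the deposited table gives FPKM and, in a further column, counts, per the file headers. TopHat and Cufflinks 2.1.1 with the build GRCm38.p4 are named per the submitters' processing notes. The sources used here do not give annotation release, strand or multi-mapping. The deposited count columns were not whole and were used as a signal called scaled counts. Of their values above 0.01, 97.1 to 97.9% lay within 0.1 of a multiple of 1 step per library, and dividing by that step estimated fragments. Vanishing estimates kept whole reads from being recovered for every gene, so no count test was run. Symbols and positions came from GENCODE M21 (46483 of 47062 identifiers matched).

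limma 3.58.1 (R 4.3.3) modelled log2(FPKM + 0.5) over all 6 libraries with a variance trend and kept genes whose mean FPKM was 0.5 or more. P-values are two-sided and adjusted by Benjamini-Hochberg over 16666 genes. Fold changes on this scale understate those of low genes. The steps were tested on simulated data. The 9 genes, 6 pathway lists and 10 marker lists were chosen with earlier results of these data known. Text names the 9 genes, Sp9, up to 4 genes per pathway list by smallest p, the most and least abundant of a family, and the 2 nearest profiles per gene with a mean FPKM of at least 1. Some genes that this takes are not reported here. The 16 alternatives run were other pseudocounts, filters and normalizations, scaled counts, robust limma, a replicate block and each library left out.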

Additional observations from a re-analysis of the deposited data

How the results depend on the processing

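None of the 9 genes and none of the tested genes of the pathway lists passed the limma threshold under any of the 16 alternatives. The count over all genes was 10 as reported, 23 on scaled counts, 5 with the replicate block and 12 to 21 with 1 library left out. Dll1 turned to 0.030 on scaled counts. With 1 library left out, log2 fold changes ran from -0.16 to 0.028 for Dll1, -0.49 to 0.057 for Dll3, -0.16 to 0.20 for Egfr, -0.22 to 0.24 for Gsx2, -0.083 to 0.12 for Hes5, -0.16 to 0.16 for Notch1 and -0.40 to 0.047 for Vax1, so the sign of these 7 depended on a single library. Hes1 (-0.20 to -0.02) and Nes (-0.34 to -0.15) kept theirs. Sp9 passed in 5 alternatives. Same-numbered libraries had correlations of deviations of 0.0025, 0.037 and 0.043. Replicates 2 and 3 of each group correlated best with their own number, but replicate 1 did not. With 3 libraries per group, these values cannot decide whether the numbers pair the libraries. With a mean FPKM of at least 1, Gsx2 was not tested. edgeR and DESeq2 were not run, since whole reads were not recovered. Gsx2 and Vax1 rested on under 30 fragments in each library.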
